A study of Mus musculus with 16 samples.

Results

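The Zscan4 cluster and the genes read with it at the 2-cell stage of the mouse embryo were described across iPSC and TSC colonies grown alone or assembled together. The set was named by symbol, not by any value: Zscan4a to Zscan4f, Tcstv1, Tcstv3 and Zfp352, 9 symbols in all. Of these, 4 were found among the 31663 entries of the deposited table, namely Zscan4c, Zscan4d, Zscan4f and Zfp352, and the other 5 were not analysed here. The 3 Zscan4 genes reached 1 FPKM in at least 2 libraries and were tested together with all other such genes, 13406 in total. FPKM counts fragments per kilobase of transcript, scaled to the mapped depth of the library. Zfp352 reached 1 FPKM in 1 library only and is described without a test. The 3 Zscan4 genes passed that filter only through the few libraries in which they were high.

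RNA was measured in 16 libraries, 2 in each of 8 groups, made with Smart-seq2 (full-length cDNA from very small amounts of RNA). Cells labelled iPSC, the usual short form of induced pluripotent stem cells, carried GFP. Cells labelled TSC, in the protocol also TSCC, carried RFP and are called by that label. The groups were assembled TSC with BMP4 (ITS_TSC_BMP4) and without (ITS_TSC), lone TSC with BMP4 (TSC_BMP4) and without (TSC), assembled iPSC with BMP4 (ITS_iPSC_BMP4) and without (ITS_iPSC), and lone iPSC with BMP4 (iPS_BMP4) and without (iPS). Each library came from a single picked colony, or from the green or red side of a single assembled structure, picked by its fluorescence and split off by hand. Every group was kept on 5% Matrigel, received FGF4 (12.5 ng/ml) together with heparin (500 ng/ml) and was collected on day 3. BMP4 was present or absent over the closing 24 hours, and its dose is not given in the labels. The labels give no strain, clone or line for the iPSC or the TSC. Separate cultures are not stated for the 2 libraries of any group, and every p-value therefore measures only the spread between these libraries.

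Zscan4 proteins carry a SCAN domain and zinc fingers, are made in a burst at the 2-cell stage, and in cultures of mouse pluripotent cells appear in a small and changing fraction of cells. There they are known for helping to keep telomeres long. Tcstv1 and Tcstv3 are transcripts of the same embryonic window, and Zfp352 is a zinc finger gene that is also read mainly in the 2-cell embryo. In that window the genes are switched on by the homeobox factor Dux, which Dppa2 and Dppa4 help to activate, and they are held silent in other cells by chromatin proteins such as Trim28, Kdm1a and the histone chaperone subunit Chaf1a. In bulk RNA, fewer cells of a type and less RNA per cell cannot be told apart, so a library's Zscan4 level does not say how many of its cells read the genes.

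The 250 bases before the annotated start of the 4 genes are shown to describe how alike the Zscan4 copies are there. They lie before the annotated transcripts, and it is the sharing of transcript sequence, given below, that bears on the Zscan4 values. They are taken from RefSeq on GRCm38.p6 and written 5′ to 3′ along the gene's own strand. The windows are chr7:11005495-11005744 on the plus strand for Zscan4c, chr7:11166149-11166398 on the minus strand for Zscan4d, chr7:11397665-11397914 on the plus strand for Zscan4f and chr4:90218570-90218819 on the plus strand for Zfp352. Capitals mark the letters TATAAA in the Zscan4 genes and the letters TAATCC, the core of a bicoid-class homeobox motif, in Zfp352.
Zscan4c: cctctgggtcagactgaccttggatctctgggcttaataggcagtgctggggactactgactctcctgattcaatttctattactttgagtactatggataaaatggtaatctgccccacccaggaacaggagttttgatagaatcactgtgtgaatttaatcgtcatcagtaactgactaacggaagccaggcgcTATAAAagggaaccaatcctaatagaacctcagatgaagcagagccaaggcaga
Zscan4d: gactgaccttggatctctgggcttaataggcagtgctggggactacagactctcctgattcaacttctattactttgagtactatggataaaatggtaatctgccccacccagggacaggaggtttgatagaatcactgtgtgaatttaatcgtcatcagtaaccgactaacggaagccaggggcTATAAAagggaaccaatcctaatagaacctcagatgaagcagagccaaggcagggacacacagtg
Zscan4f: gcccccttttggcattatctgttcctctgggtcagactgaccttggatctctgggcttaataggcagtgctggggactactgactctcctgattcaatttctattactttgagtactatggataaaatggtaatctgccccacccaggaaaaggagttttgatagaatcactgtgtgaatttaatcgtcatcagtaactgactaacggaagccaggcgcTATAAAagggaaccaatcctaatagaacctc
Zfp352: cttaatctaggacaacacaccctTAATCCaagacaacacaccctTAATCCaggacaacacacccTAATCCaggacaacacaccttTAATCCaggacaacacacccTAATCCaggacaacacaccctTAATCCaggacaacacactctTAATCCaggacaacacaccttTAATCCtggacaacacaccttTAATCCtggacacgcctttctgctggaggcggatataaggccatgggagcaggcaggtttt
Slid against each other to their best ungapped overlap, the Zscan4c and Zscan4f windows were identical at 226 of 227 bases (99.6%), Zscan4c and Zscan4d at 232 of 239 (97.1%), and Zscan4d and Zscan4f at 209 of 216 (96.8%). TATAAA began 54 bases before the start of Zscan4c, 65 before Zscan4d and 31 before Zscan4f. It occurred on either strand in 12.4% of the 32851 windows of the same length in the table, and not in Zfp352. The Zfp352 window held 9 copies of TAATCC, all on the gene's strand within a repeated stretch. Of all 32851 windows it was the only 1 with as many, and 6.25% held at least 1. The DUX motif (TGATT and AATCA with any single base between them) and the ZSCAN4 motif TGCACAC, searched on both strands, had no match in these 4 windows, against 0.0304% and 3.67% of all windows. No matches overlapped.

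The transcripts also share long stretches. In GENCODE M21, 95.3% of all 50-base windows of the Zscan4f transcript also occurred in another Zscan4 gene or pseudogene, against 85.5% for Zscan4c and 49.6% for Zscan4d. With 100-base windows the shares were 89.5%, 72.8% and 29.6%. The labels name neither the program that made the FPKM nor its treatment of shared fragments. The 3 values are therefore uncertain as separate genes and may include fragments of the unlisted copies, and their sum is given beside them.

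The libraries differed in ways that touch these genes. The smallest steps between low FPKM values of single-transcript genes gave a depth of about 4620000 to 14300000 fragments per library, an approximation that ignores effective length. Replicate 2 of assembled TSC held iPSC genes: Pou5f1 stood at 13.2 FPKM, against 2.33 in replicate 1, Nanog at 4.51 FPKM against 0.224, and Tdgf1 at 22.5 FPKM against 0.261. Replicate 2 of assembled iPSC with BMP4 held the trophoblast factor Elf5 at 50.4 FPKM, against 0.193 in replicate 1. Other trophoblast markers did not share this gap. From replicate 1 to replicate 2, Gata3 stood at 12.5 and 6.02 FPKM, Cdx2 at 2.46 and 1.25, and Eomes at 16.5 and 18.1. The 12 trophoblast markers summed to 546 and 602. Pou5f1 lay between 0.0335 and 13.2 FPKM in the 8 libraries of TSC origin and between 49.5 and 326 in the 8 of iPSC origin. Of the 10 pluripotent markers, however, 2 were higher and 6 lower in TSC origin, and Zfp42 had a median of 18.8 FPKM in TSC origin and 7.28 in iPSC origin. Of the 12 trophoblast markers, 11 were higher and 0 lower in TSC origin, among them Tfap2c, with a median of 40.04 FPKM in TSC origin and 4.44 in iPSC origin. In lone TSC without BMP4, Eomes, a defining trophoblast stem cell factor, was at 0.219 and 0.0844 FPKM. The 5 oocyte markers Nlrp5, Zp3, Gdf9, Oosp1 and Bmp15 summed to at most 0.807 FPKM in any library, with Oosp1 at 0 in all 16.

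Zscan4 RNA was high in single libraries rather than in groups. Zscan4f was the highest of the 3 in each library with a summed level above 1 FPKM. Assembled TSC without BMP4 held 0 in replicate 1 and 3.52 FPKM in replicate 2, the library with iPSC genes, and the part of those genes in this value was not tested. The other 6 libraries of TSC origin lay between 0 and 0.0470 FPKM. Assembled iPSC held 0.221 and 0.0233 FPKM with BMP4, and 36.7 in replicate 1 and 0.0276 in replicate 2 without it. Lone iPSC held 21.4 in replicate 1 and 0.0408 in replicate 2 with BMP4, and 1.49 and 0.0208 without it. Apart from assembled iPSC with BMP4, replicate 1 was thus high and replicate 2 near 0 in each iPSC group.

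Zscan4c, the copy named in most work on embryonic stem cells, followed the same libraries. In TSC origin the only value above 0.0368 FPKM was 0.921, in replicate 2 of assembled TSC. Assembled iPSC had 0.219 and 0.0547 FPKM with BMP4 and 15.99 and 0 without it. Lone iPSC had 9.05 and 0.0318 with BMP4 and 1.46 and 0.0161 without it.

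Zscan4d, the copy with the fewest shared transcript windows, was read in fewer libraries. Of the 8 libraries of TSC origin it was above 0 only in replicate 2 of assembled TSC, at 0.549 FPKM. Assembled iPSC was listed at 0 in both libraries with BMP4 and had 9.71 and 0 FPKM without it. Lone iPSC had 13.5 and 0.0863 with BMP4 and 0.247 and 0.0188 without it.

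Zfp352 was read in 1 library: 1.61 FPKM in replicate 1 of assembled iPSC without BMP4. Replicate 1 of lone iPSC held 0.0566, the value of about 1 fragment, and the other 14 libraries were listed at 0. At the approximate depths a value of 0 allows up to 3 fragments, which is 0.0922 to 0.285 FPKM of Zfp352 depending on the library, for counting error only. The library with the most Zscan4 was thus the only 1 with more than a trace of Zfp352, while replicate 1 of lone iPSC with BMP4, second in Zscan4, held none.

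**Figure D1:**
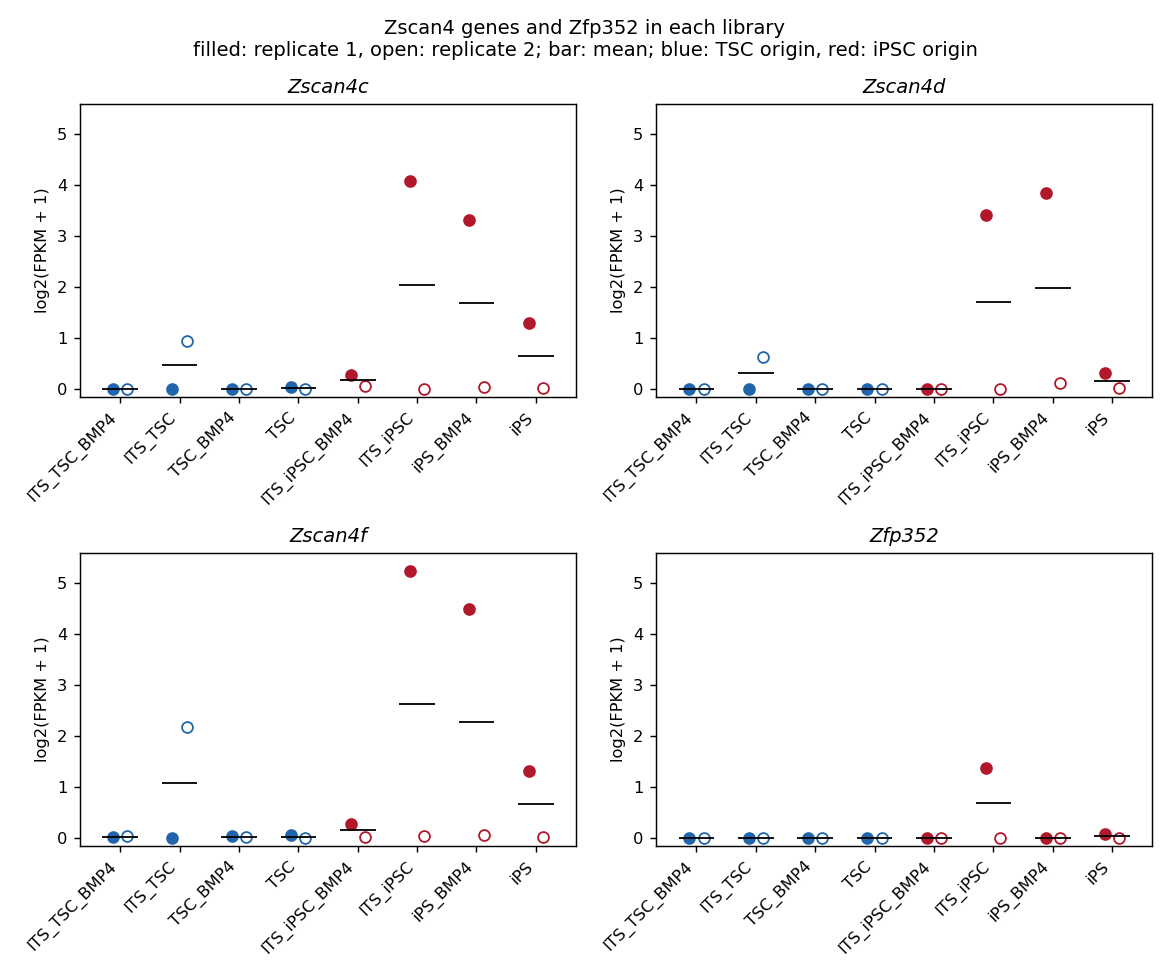
Levels of Zscan4c, Zscan4d, Zscan4f and Zfp352 as log2(FPKM + 1) in each of the 16 libraries, by group, with filled circles for replicate 1, open circles for replicate 2 and a bar at the mean of the 2. Single libraries carry the high means: Zscan4f is at 36.7 FPKM in 1 library of assembled iPSC (ITS_iPSC) and 0.0276 in the other.

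Summed over the 3 copies, Zscan4 stood at 4.99 FPKM in replicate 2 of assembled TSC, 62.4 in replicate 1 of assembled iPSC, 43.9 in replicate 1 of lone iPSC with BMP4 and 3.2 in replicate 1 of lone iPSC. The other 12 libraries lay between 0 and 0.440. In fragments, the sums came to about 139.9, 1599, 914 and 73.4 in these 4 libraries and to at most 4.17 in the others. The high values therefore rested on many fragments and the low ones on a handful or fewer. Many low values were worth less than 1 fragment: in replicate 2 of lone iPSC the 3 copies had 0.331, 0.386 and 0.343, a sum of 1.06.

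As group means, the summed level was 0.0298 ± 0.0121 FPKM in assembled TSC with BMP4, 2.497 ± 3.53 in assembled TSC, 0.0271 ± 0.000230 in lone TSC with BMP4 and 0.0419 ± 0.0592 in lone TSC (SD, n = 2 each). It was 0.259 ± 0.256 in assembled iPSC with BMP4, 31.2 ± 44.1 in assembled iPSC, 22.0 ± 30.9 in lone iPSC with BMP4 and 1.63 ± 2.22 in lone iPSC. From the highest mean down, the order was assembled iPSC, lone iPSC with BMP4, assembled TSC, lone iPSC, assembled iPSC with BMP4, lone TSC, assembled TSC with BMP4 and lone TSC with BMP4. Each of the 7 neighbouring pairs in this order had overlapping ranges. The SD was larger than the mean in the first 4 groups and in lone TSC.

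The copies took different shares of the sum from library to library. Zscan4f made up 70.6% in replicate 2 of assembled TSC, 58.8% in replicate 1 of assembled iPSC, 48.7% in replicate 1 of lone iPSC with BMP4 and 46.7% in replicate 1 of lone iPSC. The share of Zscan4d was 10.99%, 15.6%, 30.7% and 7.73% in the same libraries, and that of Zscan4c 18.5%, 25.6%, 20.6% and 45.6%. Over the 16 libraries the 3 copies had Pearson correlations of 0.962 to 0.987 with each other on the log2(FPKM + 1) scale. These are descriptions, since the copies share fragments and the 16 values come mostly from a few libraries.

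The gap between replicates was set against that of all genes in the same libraries. In assembled TSC without BMP4 the libraries differed by 2.18 toward replicate 2 on the log2(FPKM + 1) scale for Zscan4f, and 101 of the 13406 genes tested (0.753%) had a larger gap. In assembled iPSC without BMP4 they differed by 5.20 toward replicate 1, with 24 genes larger (0.179%). The median gap of all genes there was 0.246. In lone iPSC with BMP4 the gap was 4.43, with 28 genes larger (0.209%), and in lone iPSC 1.29, with 219 larger (1.63%). Zscan4d had smaller gaps in assembled TSC, with 19.0% of genes larger, and in lone iPSC, with 39.0% larger. In the other 4 groups, where no library was high, the gap of Zscan4f was exceeded by 91.3% of genes in assembled TSC with BMP4, 95.5% in lone TSC with BMP4, 86.9% in lone TSC and 64.3% in assembled iPSC with BMP4. The gap of Zscan4f was thus wide in 4 of 8 groups, those with a library at 1 FPKM or more. Zscan4f was tested only through these 4 libraries, so its ranks are descriptions and cannot support a pattern. In the other groups both libraries were near 0, which keeps the gap small on this scale.

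The first question was whether cell origin set the level. Tests used limma on log2(FPKM + 1), and changes are differences on that scale ± SE. In the mean over the 4 culture conditions, TSC origin minus iPSC origin, 0 of the 3 Zscan4 genes passed an adjusted p of 0.05, against 48.8% of all genes tested. Zscan4f differed by -1.14 ± 0.73 (limma adjusted p = 0.213) and Zscan4c by -1.02 ± 0.55 (limma adjusted p = 0.145, the lowest of any member in any comparison). The summed level had a median of 0.0271 FPKM and a range of 0 to 4.99 in the 8 libraries of TSC origin, against a median of 0.299 and a range of 0.0276 to 62.4 in the 8 of iPSC origin. It reached 0.1 FPKM in 1 of 8 libraries of TSC origin, the one with iPSC genes, and in 5 of 8 of iPSC origin. An exact two-sided permutation of origin within the 4 conditions, over 1296 arrangements, gave p = 0.137 for the difference of -1.46, where the smallest p it can give is 0.00154. Without replicate 2 of assembled iPSC, or without replicate 2 of lone iPSC with BMP4, 3 of 3 genes passed, and without replicate 2 of assembled iPSC Zscan4f differed by -1.79. With either left out, the group concerned is represented by its high library alone.

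Within single conditions the members also did not pass. Between lone TSC and lone iPSC, 0 of 3 passed, against 36.4% of all genes, with no member at a difference of 1 or more and the summed level at -1.02 ± 1.72 (limma adjusted p = 0.681). Between lone TSC and lone iPSC with BMP4, 0 of 3 passed, against 18.2%, with Zscan4f at -2.24 ± 1.46 (limma adjusted p = 0.312) and Zscan4d at -1.99 ± 1.03 (limma adjusted p = 0.203). Without replicate 2 of lone iPSC with BMP4, 1 of 3 passed, with Zscan4d at -3.86. Both TSC libraries there were at 0 for Zscan4d, and the iPSC libraries held 13.5 and 0.0863 FPKM. Between assembled TSC and assembled iPSC, 0 of 3 passed, against 16.9%, with Zscan4c at -1.57 ± 1.10 (limma adjusted p = 0.372) and Zscan4f at -1.55 ± 1.46 (limma adjusted p = 0.520). That sign rested on 1 library: without replicate 1 of assembled iPSC, Zscan4f differed by 1.05, and without replicate 2 of assembled iPSC 1 of 3 passed, with Zscan4c at -3.62. Between assembled TSC and assembled iPSC with BMP4, 0 of 3 passed, against 10.1%, and no member differed by 1 or more.

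The second question was whether assembly changed the level. In the mean over cell types and BMP4, assembled minus lone, 0 of 3 passed, against 34.1% of all genes, and the summed level differed by 0.16 ± 0.86 (limma adjusted p = 0.905). Between assembled and lone iPSC without BMP4, 0 of 3 passed, against 11.8%, with Zscan4f at 1.96 ± 1.46 (limma adjusted p = 0.416) and Zscan4d at 1.54 ± 1.03 (limma adjusted p = 0.363). The assembled libraries held 36.7 and 0.0276 FPKM of Zscan4f and the lone ones 1.49 and 0.0208, so the groups overlapped. Without replicate 1 of assembled iPSC the Zscan4f difference was -0.63. Between assembled and lone iPSC with BMP4, 0 of 3 passed, against 5.72%, with Zscan4f at -2.11 ± 1.46 (limma adjusted p = 0.390) and Zscan4d at -1.99 ± 1.03 (limma adjusted p = 0.250). That sign is opposite to the one without BMP4, and without replicate 1 of lone iPSC with BMP4 Zscan4f differed by 0.10. Between assembled and lone TSC without BMP4, 0 of 3 passed, against 19.2%, with Zscan4f at 1.06 ± 1.46 (limma adjusted p = 0.662) and at -0.03 without the library that holds iPSC genes. Between assembled and lone TSC with BMP4, 0 of 3 passed, against 0.298%, and no member differed by 1 or more.

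The third question was whether BMP4 changed the level. In the mean of the 4 BMP4 effects, 0 of 3 passed, against 1.4% of all genes, and the summed level differed by -0.55 ± 0.86 (limma adjusted p = 0.824). Between lone iPSC with and without BMP4, 0 of 3 passed, against 0.0597%, with Zscan4d at 1.81 ± 1.03 (limma adjusted p = 0.894) and Zscan4f at 1.597 ± 1.46 (limma adjusted p = 0.979). Without replicate 1 of lone iPSC with BMP4, Zscan4f differed by -0.62. Between assembled iPSC with and without BMP4, 0 of 3 passed, against 0.00746%, with Zscan4f at -2.48 ± 1.46 (limma adjusted p = 0.733) and Zscan4c at -1.86 ± 1.10 (limma adjusted p = 0.738). Without replicate 1 of assembled iPSC these were 0.12 and 0.18. Between assembled TSC with and without BMP4, 0 of 3 passed, against 0.5%, with Zscan4f at -1.05 ± 1.46 (limma adjusted p = 0.945) and at 0.04 without the library that holds iPSC genes. Between lone TSC with and without BMP4, 0 of 3 passed, against 12.1%, and no member differed by 1 or more.

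Whether the BMP4 effect depended on assembly was tested as an interaction. In iPSC, 0 of 3 members passed, against 0.0224% of all genes, with Zscan4f at -4.07 ± 2.06 and Zscan4d at -3.53 ± 1.46, both at a limma adjusted p of 1. Zscan4d had an unadjusted limma p of 0.0315 there, the only 1 under 0.05 among the 51 tests of members. In TSC, 0 of 3 passed, against 1.75%, with Zscan4f at -1.05 ± 2.06 (limma adjusted p = 0.852). The 17 comparisons share libraries, so the same high libraries return in several of them with either sign.

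**Figure D2:**
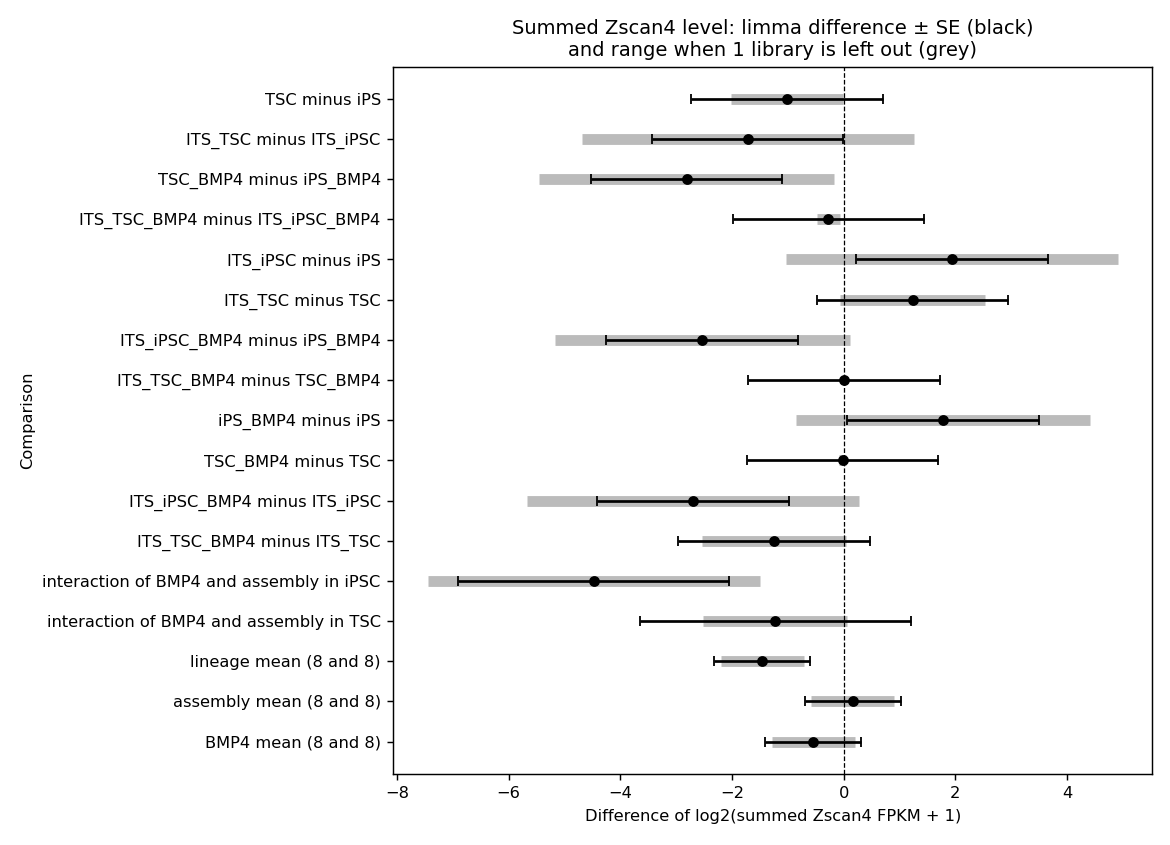
Differences of log2(summed Zscan4 FPKM + 1) in the 17 comparisons, with black points and bars for the limma value ± SE and grey bars for the range when 1 library at a time is left out. For assembled minus lone iPSC without BMP4 the value is 1.94 and the range -1.04 to 4.91, on both sides of 0.

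The same libraries were then described for other 2-cell genes. Of 56 other genes of the 2-cell stage on a list drawn up for this purpose, 36 were in the table, 31 were above 0 in some library and 14 were tested. Replicate 1 of assembled iPSC held the highest value of 14 of the 31, replicate 1 of lone iPSC with BMP4 of 6 and replicate 1 of lone iPSC of 3. In the first of these libraries 17 reached 1 FPKM and in the second 14, against 2 to 5 in each of the other 14 libraries. These were the libraries with the most Zscan4. The matching shares of all genes were not computed, and near-identical copies, which may share reads, were counted as separate genes. Replicate 2 of assembled TSC, next in summed Zscan4, had 4.

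Gm4340, a predicted gene read in the 2-cell window, stood at 31.0 FPKM in replicate 1 of assembled iPSC, 52.3 in replicate 1 of lone iPSC with BMP4 and 2.35 in replicate 1 of lone iPSC. The other 13 libraries were at 0.375 or below. The 5 Usp17l genes, a family of deubiquitinases with near-identical copies, summed to 9.06 FPKM in replicate 1 of assembled iPSC, 8.49 in replicate 1 of lone iPSC with BMP4 and 2.66 in replicate 1 of lone iPSC. A second family, whose copies may likewise share reads, was split: 5 copies related to the translation factor eIF1A (Gm5662, Gm4027, Gm2016, Gm8300 and BB287469) summed to 53.5 FPKM in replicate 1 of assembled iPSC but 5.29 in replicate 1 of lone iPSC with BMP4, against 0.659 to 2.53 in the other 14. The libraries with the highest Zscan4 were thus close in Usp17l and far apart in the eIF1A copies and Zfp352.

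The homeobox genes of the early embryo were scarce. Obox1 stood at 0.457 FPKM and Obox2 at 0.326 in replicate 1 of assembled iPSC and at 0 in the other 15 libraries. Ubtfl1, an HMG-box gene needed by the early embryo, stood at 0.692 in that library and at 0 in the other 15. Obox3 and Obox5 were at 0 in all 16. Obox6 was at 0 in replicate 1 of assembled iPSC and in replicate 1 of lone iPSC with BMP4. Its highest values were 0.160 FPKM in replicate 2 of lone TSC with BMP4 and 0.143 in replicate 2 of lone iPSC with BMP4. Duxf3, a symbol of the repeated Dux array, was at trace level in all libraries, at most 0.422 FPKM, in replicate 2 of assembled iPSC with BMP4. In the groups with a high Zscan4 library it stood at 0.130 in that library and 0 in the other for assembled TSC, 0.0911 and 0.0493 for assembled iPSC, 0.147 and 0.0364 for lone iPSC with BMP4, and 0.240 and 0.222 for lone iPSC. It was thus listed as the higher of the pair in the high Zscan4 library each time, while its highest value lay in a library low in Zscan4. With 1 fragment on 1 kilobase worth 0.0700 to 0.216 FPKM, these values rest on few fragments. No direction is read from them. Obox1, Obox2 and Ubtfl1 were picked out after their values were seen.

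**Figure D3:**
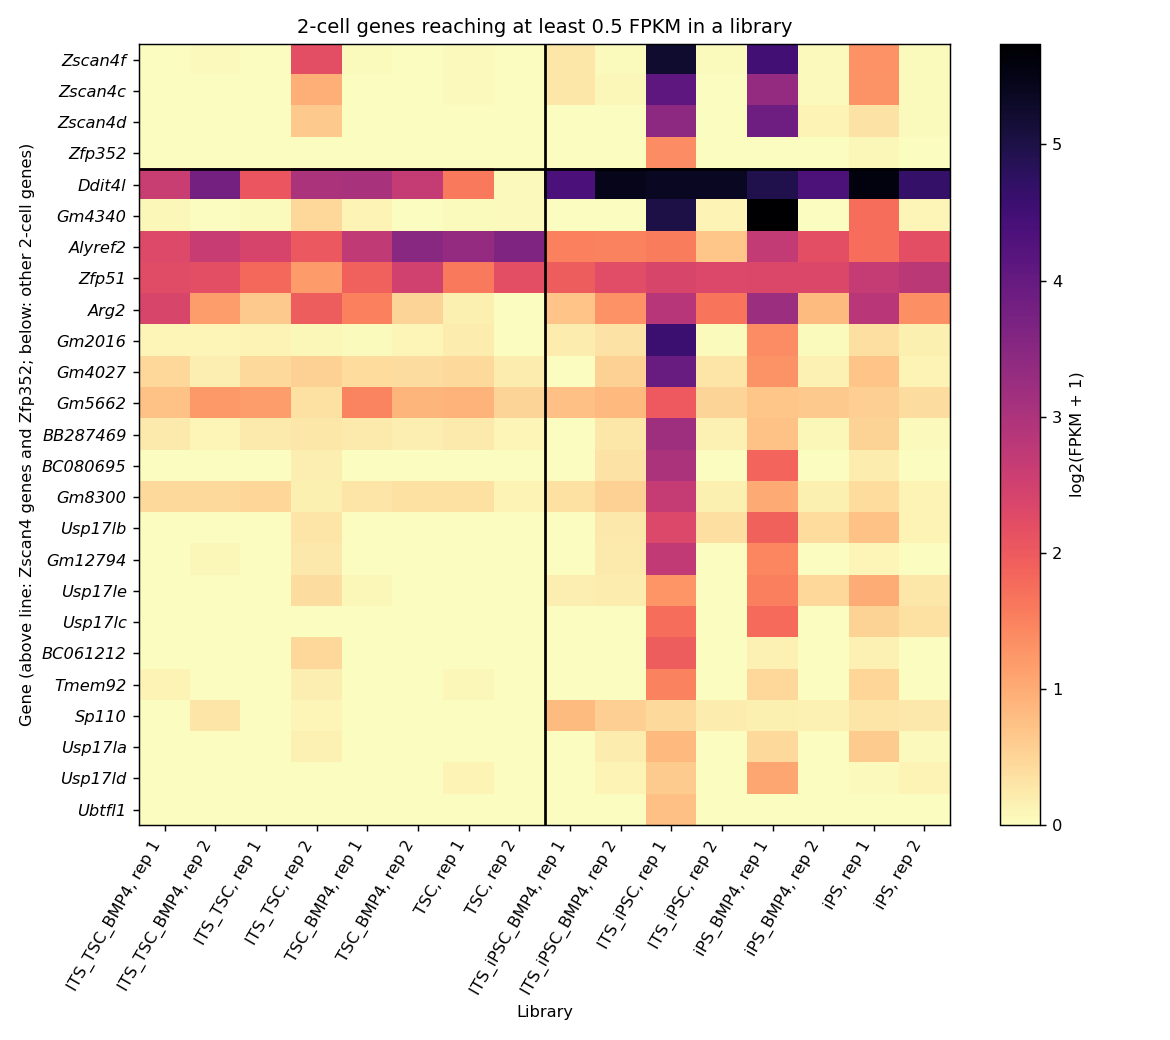
Levels as log2(FPKM + 1), by colour, of the 4 members and of the other 2-cell genes that reached 0.5 FPKM in a library, with genes as rows and the 16 libraries as columns, TSC origin left of the vertical line. The columns of ITS_iPSC replicate 1 and iPS_BMP4 replicate 1 stand out in most rows, while Ddit4l, Alyref2, Zfp51 and Arg2 are read across most libraries.

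In the mean over conditions, TSC origin minus iPSC origin, 1 of the 14 tested 2-cell genes was higher and 4 lower, where 48.8% of all genes were called. Of the 14, 8 were tested only because they were high in 2 iPSC libraries, Usp17lb and Usp17le among them. Alyref2, an mRNA export adaptor, was higher in TSC origin by 1.06 ± 0.18 (limma adjusted p = 0.000444). Ddit4l, an inhibitor of mTOR signalling, was lower, at -2.65 ± 0.28 (limma adjusted p = 9.49e-06), and read in every iPSC library at 19.1 FPKM or more. Usp17lb was lower at -0.73 ± 0.27 (limma adjusted p = 0.0407) and Usp17le at -0.56 ± 0.21 (limma adjusted p = 0.0405). Both of these calls were lost under quantile normalization, without the filter on low values and when most single libraries were left out. The number lower was 10 without replicate 2 of assembled iPSC and 1 or 2 without any 1 of 13 others, from both origins. In the assembly mean 0 were higher and 1 lower, Alyref2 at -0.92 ± 0.18 (limma adjusted p = 0.00271), and in the BMP4 mean 0 were higher and 0 lower.

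The genes most like the summed Zscan4 level were sought by Pearson correlation of log2(FPKM + 1) over the 16 libraries, among 13403 tested genes. With predicted names left out, the 10 highest were Usp17lb (0.948), Usp17lc (0.932), AA792892 (0.924), BC080695 (0.921), Usp17le (0.920), Pramef25 (0.914), F8 (0.835), Tnfrsf25 (0.754), Fmr1nb (0.751) and Arg2 (0.744). The Usp17l genes encode deubiquitinases, Pramef25 belongs to the PRAME family, F8 is coagulation factor VIII, Tnfrsf25 a death receptor, Fmr1nb a cancer-testis antigen and Arg2 the mitochondrial arginase. Of the 20 highest with predicted names included, 13 were predicted names and 8 were on the list of other 2-cell genes. That count cannot support the likeness: 8 of the list's 14 tested genes passed the filter only through replicate 1 of assembled iPSC and replicate 1 of lone iPSC with BMP4, the libraries highest in Zscan4. The highest of all was Gm4340 (0.956). These correlations are descriptions that rest largely on 2 libraries: without replicate 1 of assembled iPSC and replicate 1 of lone iPSC with BMP4, Usp17lb was at 0.614, Tnfrsf25 at 0.291 and AA792892 at 0.846.

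AA792892, whose correlation without those 2 libraries was the highest of the 10, stood at 0.697 FPKM in replicate 2 of assembled TSC, 7.17 in replicate 1 of assembled iPSC and 1.69 in replicate 1 of lone iPSC with BMP4. It was at 0.0894 or below in the other 13 libraries. Fmr1nb differed from the rest in level. It stood at 108 FPKM in replicate 1 and 0.154 in replicate 2 of assembled iPSC, 56.6 and 13.5 in lone iPSC with BMP4, and 23.2 and 54.2 in lone iPSC. In assembled TSC it stood at 1.38 in replicate 1 and 23.1 in replicate 2, the library with iPSC genes. Its order thus followed Zscan4 in these groups other than lone iPSC.

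Dppa4 is a partner of Dppa2 at the Dux promoter that helps to switch the 2-cell set on. In the iPSC groups with a high Zscan4 library it was not higher in that library than in its replicate. It stood at 84.2 and 96.4 FPKM in assembled iPSC, 67.3 and 68.2 in lone iPSC with BMP4, and 105 and 118 in lone iPSC. In assembled TSC, Dppa4 stood at 57.0 FPKM in replicate 2, the library with high Zscan4, against 46.6 in replicate 1. The libraries of each pair stood close in Dppa4. A link of these orders to Zscan4 was not tested, and no direction is read from them. Dppa2 stood at 31.6 and 49.7 in assembled iPSC and 46.0 and 38.4 in lone iPSC with BMP4. It was at 36.6 and 47.7 in lone iPSC and 28.6 and 31.7 in assembled TSC. The list of activators had 8 tested genes: Dppa2, Dppa4, Nelfa, Tbx3, Trp53, Usp7, Tet1 and Tet2. Whether each of them activates the 2-cell set in these cells was not tested. Of the 8, 2 were higher and 3 lower in TSC origin, where 48.8% of all genes were called. Dppa4 was at -0.89 ± 0.17 (limma adjusted p = 0.000931) and Trp53, which encodes p53, at -0.47 ± 0.17 (limma adjusted p = 0.0403). In assembled against lone cells 3 were higher and 0 lower, near the 34.1% of all genes, with Dppa4 at 0.58 ± 0.17 (limma adjusted p = 0.0200) and Trp53 at 0.48 ± 0.17 (limma adjusted p = 0.0498). The assembly count ranged from 1 to 4 when 1 library was left out, and both Trp53 calls were lost without most single libraries. In the BMP4 mean 0 were higher and 0 lower.

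Among genes known to keep the 2-cell set silent, some were higher and some lower in assembled cells. Of 30 tested, 5 were higher (3 to 5 without 1 library) and 9 lower, where 34.1% of all genes were called, with a median of -0.26, against -0.10 over all genes. Trim28, a corepressor of retroelements and of the 2-cell set, stood at 464 and 432 FPKM in assembled iPSC, against 144 and 125 in lone iPSC. In the assembly mean it was higher by 1.51 ± 0.12 (limma adjusted p = 5.03e-05), and all 8 assembled libraries, from 242 to 464 FPKM, lay above all 8 lone ones, from 90.6 to 156. Sumo2, whose product is attached to such repressors, was higher by 0.36 ± 0.13 (limma adjusted p = 0.0442), a call lost without most single libraries. Kdm1a, a histone demethylase, was higher by 0.97 ± 0.18 (limma adjusted p = 0.00172).

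Chaf1a, a subunit of the CAF-1 chaperone whose loss is known to induce 2-cell-like cells in mouse cultures, went the other way. It stood at 2.94 and 1.35 FPKM in assembled iPSC, against 20.05 and 17.6 in lone iPSC, and in the assembly mean was lower by 1.84 (-1.84 ± 0.18, limma adjusted p = 7.13e-05). All 8 assembled libraries, from 1.35 to 6.61 FPKM, lay below all 8 lone ones, from 8.25 to 29.6. Within iPSC without BMP4, Chaf1a changed by -2.70 ± 0.36 and Trim28 by 1.73 ± 0.24 (limma adjusted p = 0.00434 for each), and both calls were lost without replicate 2 of assembled iPSC (limma adjusted p = 0.0583 for each). The 2 assembled iPSC libraries stood at 464 and 432 FPKM of Trim28 and at 2.94 and 1.35 of Chaf1a. Their summed Zscan4 was 62.4 and 0.0276 FPKM. A link between these levels was not tested. Dnmt3a, a DNA methyltransferase, was lower by 1.08 (-1.08 ± 0.20, limma adjusted p = 0.00172). Kdm1a, Chaf1a and Dnmt3a were picked out after their values were seen.

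**Figure D4:**
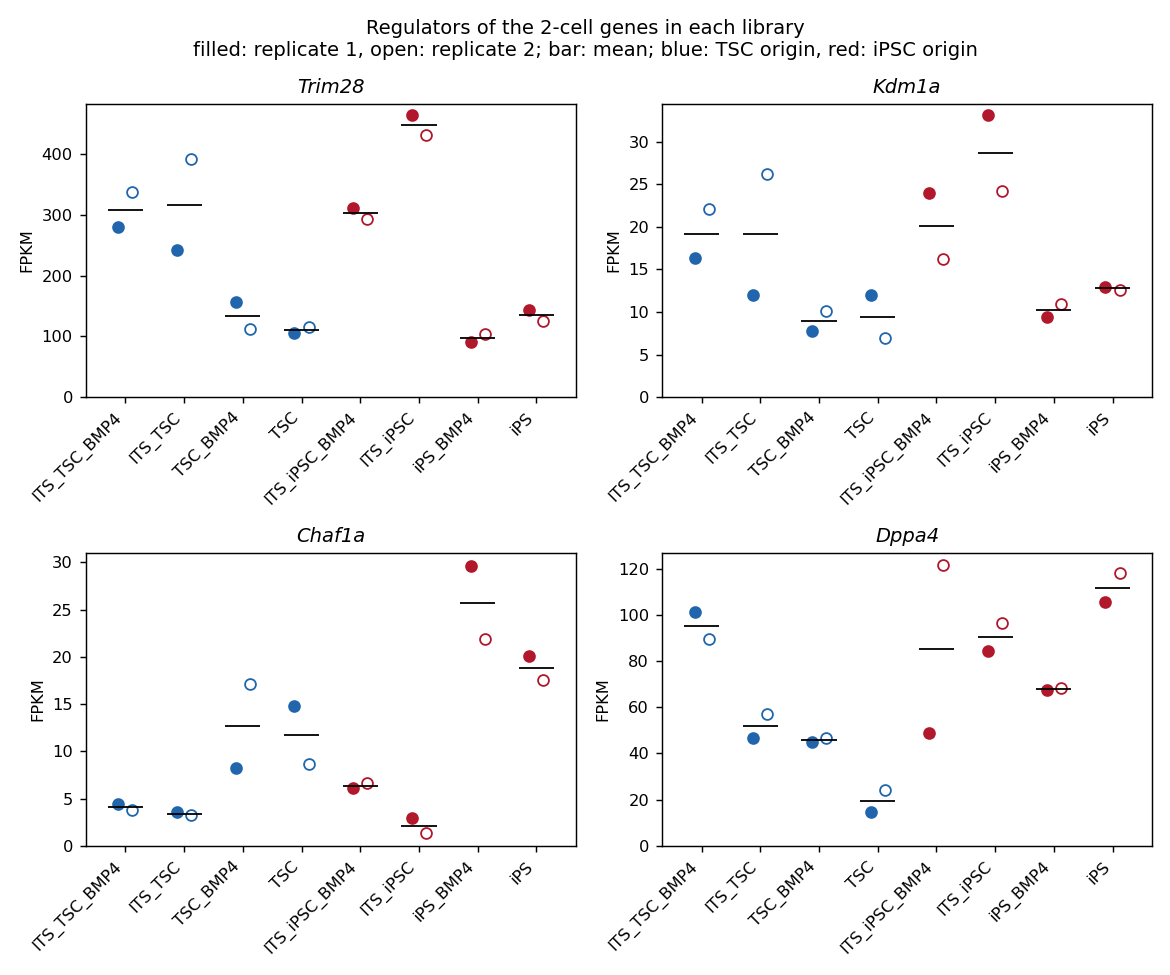
FPKM of Trim28, Kdm1a, Chaf1a and Dppa4 in each library, by group, with filled circles for replicate 1, open circles for replicate 2 and a bar at the mean of the 2. Trim28 is at 242 FPKM or more in all assembled (ITS) libraries and Chaf1a is at 6.61 or below in all of them.

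By cell origin, 3 of the 30 silencing genes were higher and 11 lower in TSC origin, about the share of all genes called, 48.8%. Hdac1, a histone deacetylase, was lower by 1.04 (-1.04 ± 0.09, limma adjusted p = 2.24e-06). In the BMP4 mean 0 were higher and 0 lower. The median over the list was -0.23 for origin, against -0.01 over all genes.

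Telomere genes were included because of the role of Zscan4. Of 16 tested, 1 was higher and 7 lower in assembled cells, where 34.1% of all genes were called, and the split was 4 and 3 under quantile normalization. Dkc1, which encodes dyskerin, was lower in assembled cells at -0.50 ± 0.18 (limma adjusted p = 0.0457), a call lost without most single libraries, and lower in TSC origin at -1.46 ± 0.18 (limma adjusted p = 2.98e-05). By origin 2 were higher and 6 lower, close to the 48.8% of all genes, with Terf1, a shelterin subunit that binds telomere repeats, at -0.74 ± 0.14 (limma adjusted p = 0.000991). With BMP4, 1 was higher and 0 lower, namely Atrx, a chromatin remodeller at telomeres, at 1.06 ± 0.16 (limma adjusted p = 0.00752).

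Genes of the egg and the cleaving embryo outside the 2-cell burst formed the last list, with 5 of 14 tested. By origin 1 was higher and 2 lower, where 48.8% of all genes were called. Tle6, a subunit of the subcortical maternal complex, was higher in TSC origin by 3.03 ± 0.31 (limma adjusted p = 7.01e-06), with 14.0 to 73.0 FPKM in TSC origin and 0.429 to 9.27 in iPSC origin. Dppa3 (Stella), which protects the maternal genome from demethylation, was lower at -3.73 ± 0.31 (limma adjusted p = 1.33e-06), and Ooep at -2.27 ± 0.22 (limma adjusted p = 5.04e-06). Dppa3 was at 25.8 and 24.8 FPKM in assembled iPSC, so the pair of libraries that differed most in Zscan4 stood close in it. By assembly, where 34.1% of all genes were called, 0 were higher and 1 lower, Zbed3 at -0.36 ± 0.12 (limma adjusted p = 0.0379, lost without most single libraries), and with BMP4 0 were higher and 0 lower.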

How the data were processed

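RNA was measured in 16 libraries of 8 groups. The values are FPKM as deposited by the authors, in 1 table with 1 column per library, all used. CASAVA, TopHat2 and the builds mm9 and hg19 are named, per the submitters' processing notes, without role or version; the program and annotation behind the FPKM are named nowhere in the labels. From these, the 13406 genes that reached 1 FPKM in 2 or more libraries were fitted as log2(FPKM + 1) with limma 3.58.1 in R 4.3.3 (8 group means, 8 residual degrees of freedom, eBayes with trend). There were 17 comparisons, two-sided, with Benjamini-Hochberg adjustment over all genes of each and a threshold of 0.05. A second fit replaced the 3 Zscan4 genes by their sum. No sum of Tcstv1 and Tcstv3 could be computed. This log scale understates the change of low genes.

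The members, the gene lists and the tests were chosen with earlier results of these data known. All members found are named. Their changes are given where called or, failing that, for up to 2 per comparison that differ by at least 1, beside the 10 genes most like the summed Zscan4 level and up to 4 genes per list by highest mean FPKM. Some of the other named genes are marked as chosen after their values were seen. Further genes named outside this rule, such as Eomes, Duxf3, BB287469, Obox3 and Obox5, are not marked. The result of 1 gene that this rule names is not reported here.

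Depth per library was approximated from the steps of low FPKM values over 5048 genes with a single transcript of more than 800 bases in GENCODE M21. Simulated data with the design of assembled minus lone iPSC, over 13406 genes, were tested: recovery was 12 of 67 at a 2-fold change, 56 of 67 at 4-fold and 63 of 66 at 8-fold, and 8 of 139 calls were wrong. The changed genes were drawn only from genes with a higher mean level than any Zscan4 gene. These shares therefore do not hold for the Zscan4 genes, whose SE in that comparison was 1.03 to 1.46. Python 3.11.15, numpy 2.4.6, pandas 2.3.3, scipy 1.17.1 and matplotlib 3.10.9 were used.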

Additional observations from a re-analysis of the deposited data

How the results depend on the processing

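The settings varied were the pseudocount (0.1), the filter (none), the scaling (quantile), the replicate number as a block, and each library in turn. A fit without ITS_iPSC_BMP4 replicate 2 and ITS_TSC replicate 2 together, the exact permutation by origin and a ranking with predicted names were added after the data had been seen. In the 17 comparisons 0 members passed under each setting other than 1 library left out. There the count ranged from 0 to 1 for ITS_TSC minus ITS_iPSC and for TSC_BMP4 minus iPS_BMP4, from 0 to 3 for the origin mean, and from 0 to 1 for calls of the summed level. A group left with 1 library is assumed to vary like the others.

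Leaving out 1 library of ITS_iPSC turned the sign of ITS_TSC minus ITS_iPSC (Zscan4c -3.62 to 0.47, Zscan4f -4.15 to 1.05, sum -4.69 to 1.25), of ITS_iPSC minus iPS (Zscan4f -0.63 to 4.56, sum -1.04 to 4.91) and of ITS_iPSC_BMP4 minus ITS_iPSC (Zscan4f -5.08 to 0.12, Zscan4c -3.91 to 0.18, sum -5.67 to 0.28). Leaving out 1 of iPS_BMP4 turned ITS_iPSC_BMP4 minus iPS_BMP4 (Zscan4f -4.32 to 0.10, sum -5.17 to 0.10) and iPS_BMP4 minus iPS (Zscan4f -0.62 to 3.81, sum -0.86 to 4.41). Leaving out 1 of ITS_TSC turned ITS_TSC minus TSC (Zscan4f -0.033 to 2.14, sum -0.058 to 2.53), ITS_TSC_BMP4 minus ITS_TSC (Zscan4f -2.14 to 0.036, sum -2.54 to 0.042) and the interaction in TSC (Zscan4f -2.14 to 0.039, sum -2.52 to 0.062), and the added fit without the pair gave the ends near 0 of these last ranges. Each turn came without the library that holds nearly all Zscan4 of its group. Zscan4d missed the filter without iPS_BMP4 replicate 1 or ITS_iPSC replicate 1 and has no value there.

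With the replicate block 0 members passed in each comparison. Deviations of same-numbered libraries correlated from -0.185 to 0.119 over 28 pairs of groups, 2 of them over 0.1, so the numbers were not taken as pairs. Of the 10 genes most like Zscan4, 2 were also among the 10 highest by Spearman and 2 without the libraries highest in Zscan4. Counts over all genes moved for ITS_TSC_BMP4 minus TSC_BMP4 (40, to 7 with the smaller pseudocount and 17 with the block), iPS_BMP4 minus iPS (8, to 3 and, unfiltered, 75), ITS_TSC_BMP4 minus ITS_TSC (67, to 28 with the smaller pseudocount), ITS_iPSC_BMP4 minus ITS_iPSC (1, to 2, 11 unfiltered and 3 with quantile scaling), ITS_iPSC_BMP4 minus iPS_BMP4 (767, to 424 with quantile scaling), the interaction in iPSC (3, to 5 and, unfiltered, 12) and that in TSC (235, to 151 unfiltered and 134 with the block). The cause was not tested.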
